A study of Mus musculus with 22 samples.

Results

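The Period genes Per1, Per2 and Per3 were chosen by gene symbol, and each was measured by 1 feature of the array (TC1100000900.mm.2, TC0100002801.mm.2 and TC0400004074.mm.2). They are 3 of 19505 named genes measured here. The livers came from 22 male mice, 3 to 8 months old, that carried a global knockout of adiponectin (B6;129-Adipoqtm1Chan/J) on a C57BL/6J background. The mice had chow and water freely and 12 h of light per day, and livers were collected every 4 h. Times are zeitgeber times (ZT) in hours after lights on, with 3 livers in the ZT6 and ZT18 groups and 4 in the ZT2, ZT10, ZT14 and ZT22 groups. ZT12 is lights off. Every group carries the knockout, so all comparisons are between times of day, and wild-type livers were not analysed here. A letter names the liver within its time, as in ZT6a, and each array was taken as 1 mouse. Values are log2 expression values, in which a difference of 1 stands for a doubling. The level of one Period gene was not set against that of another, since each is read by its own probes.

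Period proteins are the core of the negative limb of the circadian clock. The activator pair of CLOCK and BMAL1 (encoded by Arntl) switches on the Per genes through E-box elements, and PER proteins return to the nucleus with cryptochromes and block that pair. Casein kinases phosphorylate PER proteins and mark them for destruction, which allows the next cycle to start. Factors of the PAR bZIP family, such as DBP, act on D-box elements, and cAMP, glucocorticoids, heat and serum can also induce Per1 or Per2. Per1 and Per2 are needed for a stable rhythm in mice, whereas loss of Per3 alone has a mild effect on it.

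Sequence before the gene starts was available for 2 members, with 2 starts of Per1 and 1 of Per3 in RefSeq annotation of mouse build GRCm38.p6. It is shown because E-box, D-box and cAMP elements are the sites through which the clock and hormones are known to act on these genes. Each run holds the 250 bases before the start, and capitals mark matches to the E-box, D-box, relaxed D-box or cAMP core motif described next.
Per1 first start, chr11:69098699-69098948, plus strand: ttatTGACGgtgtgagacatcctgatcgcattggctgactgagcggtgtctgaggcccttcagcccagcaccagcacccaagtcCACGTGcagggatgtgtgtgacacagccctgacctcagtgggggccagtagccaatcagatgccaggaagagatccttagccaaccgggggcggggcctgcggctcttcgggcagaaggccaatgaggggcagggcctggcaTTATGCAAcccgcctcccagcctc
Per1 second start, chr11:69099902-69100151, plus strand: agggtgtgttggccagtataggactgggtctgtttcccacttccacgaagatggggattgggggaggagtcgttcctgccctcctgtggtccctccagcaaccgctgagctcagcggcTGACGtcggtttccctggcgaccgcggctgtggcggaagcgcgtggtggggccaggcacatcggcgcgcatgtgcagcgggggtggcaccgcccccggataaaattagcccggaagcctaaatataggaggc
Per3, chr4:151044666-151044915, minus strand: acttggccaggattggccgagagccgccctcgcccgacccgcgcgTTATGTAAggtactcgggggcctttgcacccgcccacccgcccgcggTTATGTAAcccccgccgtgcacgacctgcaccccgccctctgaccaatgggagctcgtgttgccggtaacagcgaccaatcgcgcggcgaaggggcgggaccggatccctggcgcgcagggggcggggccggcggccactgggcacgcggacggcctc

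The Per3 window held the D-box TTATGTAA at 2 places, which began 205 and 158 bases before the start. On either strand, this motif was present in 0.819% of 32851 promoter windows of the same length, and 6 windows (0.0183%) held it 2 or more times. The first Per1 window held the E-box CACGTG 166 bases before the start, a motif found in 6.02% of windows. It also held TTATGCAA 24 bases before the start, a match to the relaxed D-box TTANGNAA (10.3% of windows), of which TTATGTAA is a special case. The core of the cAMP response element, TGACG (17.8% of windows), began 246 bases before the first Per1 start and 132 bases before the second. The full element TGACGTCA, which contains that core on both strands and is found in 1.55% of windows, was in none of the 3 windows. The E-box variant CACGTT (3.85%), the short glucocorticoid motif AGAACA (16.1%) and the heat shock element GAANNTTC (6.69%) were in none of them either. The short motif of REV-ERB and ROR receptors, AGGTCA (14%), matched once, on the opposite strand of the first Per1 window. Of 143 measured genes with a D-box in a listed window, 12 (8.39%) were called for a 24 h rhythm in the test given below, and of 1243 with an E-box 131 (10.5%) were called, beside 7.77% of all 15691 genes with a listed window. These matches describe letters in short windows and do not show binding.

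All 3 Period genes were lowest at ZT2 and high around lights off. The mean of Per1 was highest at ZT14, that of Per2 at ZT14 and that of Per3 at ZT10. The means at the highest and lowest time differed by 3.28 for Per1 (9.71-fold), 4.50 for Per2 (22.6-fold) and 4.88 for Per3 (29.4-fold). A 24 h cosine fitted with limma was called for all 3, where 7.62% of the 22206 features were called at an adjusted p of 0.05. The adjusted p was 5.58e-07 for Per1, 1.23e-09 for Per2 and 4.48e-07 for Per3. By amplitude, which is the distance on the log2 scale from the middle to the peak of the fitted curve, the members ranked 41, 18 and 13 among all features. The amplitudes were 1.59 ± 0.16 for Per1, 2.12 ± 0.16 for Per2 and 2.20 ± 0.22 for Per3 (SE, n = 22).

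**Figure D1:**
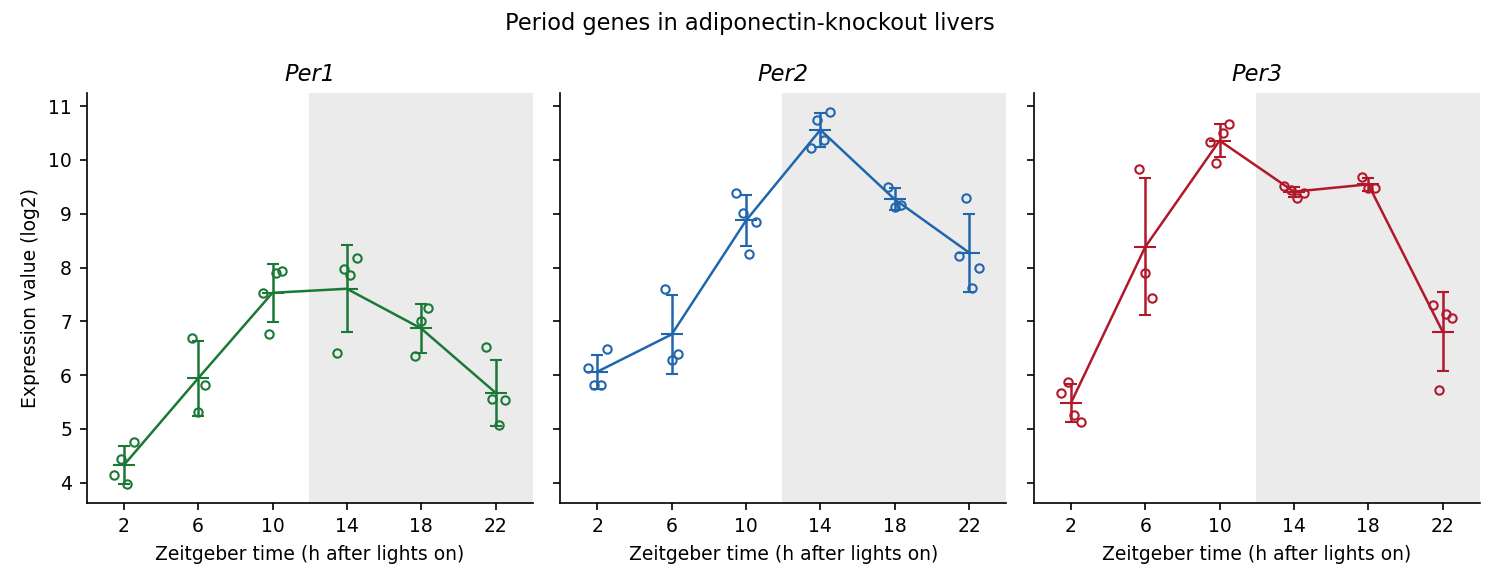
Log2 expression values of Per1, Per2 and Per3 against zeitgeber time (h after lights on). Open circles are single livers, the line joins the time means, bars are the SD and grey marks the dark phase. All 3 genes are lowest at ZT2. Per3 has its highest mean at ZT10 (10.36), and Per1 is near equal at ZT10 (7.53) and ZT14 (7.61).

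The marks of the tissue were those of liver. The mean of 6 hepatocyte markers, among them Alb and Apoa1, lay between 18.76 and 19.11 in all arrays. The means of 5 Kupffer cell, 5 sinusoidal endothelial and 6 stellate cell markers lay between 6.96 and 9.35 over all arrays. Those of 5 cholangiocyte (4.52 to 5.79), 5 lymphocyte (4.02 to 4.79) and 3 neutrophil markers (3.73 to 5.10) lay lower. Alas2, the 1 erythroid marker measured, lay higher, at 10.02 to 11.36. Markers of adipocytes (3 measured, 3.03 to 3.92) and of pancreatic acinar cells (4 measured, 3.69 to 4.71) lay near the lower quartile of the arrays, which ran from 3.67 to 3.91. In bulk tissue fewer cells of a type and less RNA per cell cannot be told apart. Adipoq, the targeted gene, measured 3.30 to 4.69 with a median of 3.62, which checks the genotype little in a tissue that makes hardly any adiponectin. In 5 arrays (ZT6b, ZT6c, ZT14b, ZT14d and ZT22a) the trefoil peptide gene Tff3 measured 10.35 to 13.63, against 2.31 to 4.73 in the other 17. These 5 arrays hold 2 of the 3 livers of ZT6 and 2 of the 4 of ZT14. Calls that change without them are given below with both values, and their part in the results was not tested. Leaving them out leaves ZT6a as the sole liver of ZT6, which stands apart from ZT6b and ZT6c as described below. Every comparison with ZT6 then has 1 liver on that side, assumed to vary like the other times, so its values are no independent check of a ZT6 result. Without them the 24 h rhythm was still called for Per1 (adjusted p = 5.52e-06), Per2 (4.09e-07) and Per3 (1.69e-06).

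Per1, which in mice is also induced by cAMP and by glucocorticoids, had the smallest range of the family. It measured 4.14, 4.43, 3.97 and 4.76 in the livers of ZT2. At ZT6 the values were 6.69, 5.32 and 5.81, so every ZT6 liver lay above every ZT2 liver. At ZT10 they were 7.52, 6.77, 7.90 and 7.93, and at ZT14 6.41, 7.97, 7.87 and 8.17. The ranges of ZT10 and ZT14 overlapped, with ZT14a below all livers of ZT10. At ZT18 Per1 measured 6.36, 7.0 and 7.24, and at ZT22 6.53, 5.55, 5.08 and 5.53. The ZT22 livers overlapped with those of ZT18 and of ZT6, but not with those of ZT2. The ZT2 level lay not far above the lower quartile of the arrays, with 0 of 4 livers at or below it, and the deposited data carry no detection calls. The fold against ZT2 is therefore uncertain at its low end.

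Ordered by level, the times of Per1 ran ZT2, ZT22, ZT6, ZT18, ZT10 and ZT14, and no neighbours in that order passed the test. The nearest to passing was the difference of ZT2 and ZT22 (ZT2 minus ZT22, −1.35 ± 0.37, SE, adjusted p = 0.157). Between ZT14 and ZT10 the difference was 0.08 ± 0.37 (adjusted p = 0.961). The ZT10 mean was 7.53 ± 0.54 and the ZT14 mean 7.61 ± 0.81 (SD, n = 4 each), with a ZT18 mean of 6.87 ± 0.45 (SD, n = 3). With so few livers per time, a difference that did not pass does not show that these levels were equal.

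Per2, whose protein carries cryptochromes into the nucleus, had no called difference between ZT6 and ZT2. It measured 6.14, 5.81, 5.82 and 6.48 at ZT2 and 7.60, 6.28 and 6.39 at ZT6. The ranges of these times overlapped. At ZT10 it measured 9.39, 9.01, 8.25 and 8.85, and at ZT14 10.22, 10.75, 10.38 and 10.89. Every liver of ZT14 lay above every liver of any other time. At ZT18 the values were 9.50, 9.13 and 9.17, and at ZT22 8.21, 9.30, 7.61 and 7.99. ZT22b stood above the other 3 livers of its time and within the range of ZT18.

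Per2 levels ran ZT2, ZT6, ZT22, ZT10, ZT18 and ZT14 from low to high. Of these neighbours, ZT22 and ZT6 differed, with a ZT22 mean of 8.28 ± 0.73 (SD, n = 4) and a ZT6 mean of 6.76 ± 0.73 (SD, n = 3). The difference of 1.52 ± 0.34 had an adjusted p of 0.0253, where 0.635% of all features were called higher at ZT22. It was lost without ZT6b, ZT6c or ZT22b (adjusted p up to 0.150) and with array weights (0.0521), and the difference was 0.70 without the Tff3-high arrays (adjusted p = 0.576). The top pair, ZT18 against ZT14, missed the threshold (ZT18 minus ZT14, −1.29 ± 0.34, adjusted p = 0.0949) although the livers did not overlap. That step was called with array weights (−1.38, adjusted p = 0.00932), with ZT14 and ZT18 fitted alone (0.0343), without ZT6a (0.0492) and without ZT22b (0.0404).

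Per3, the member with the mildest knockout effect on the mouse clock, had risen above its ZT2 level by ZT6 and was near flat at ZT14 and ZT18. It measured 5.67, 5.87, 5.25 and 5.13 at ZT2. At ZT6 the livers lay far apart, at 9.83, 7.89 and 7.43, all of them above every ZT2 liver. At ZT10 the values were 10.33, 9.95, 10.50 and 10.66, the highest of the day. At ZT14 they were 9.52, 9.44, 9.30 and 9.38, and at ZT18 9.69, 9.48 and 9.47. The 7 livers of these 2 times thus fell between 9.30 and 9.69, with SDs of 0.09 at ZT14 and 0.12 at ZT18. At ZT22 Per3 was down to 7.31, 5.73, 7.14 and 7.06, with ZT22b inside the range of ZT2.

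Per3 levels ran ZT2, ZT22, ZT6, ZT14, ZT18 and ZT10 from low to high. Among neighbours, the ZT22 mean of 6.81 ± 0.73 (SD, n = 4) and the ZT6 mean of 8.38 ± 1.27 (SD, n = 3) differed, by −1.57 ± 0.39 with an adjusted p of 0.0470, where 0.459% of features were called lower at ZT22. This call was kept in 3 of 22 omissions of a single array (adjusted p 0.0097 to 0.216). Without the Tff3-high arrays, which leaves ZT6a alone at ZT6 and also drops ZT22a, the difference was −3.19. With array weights it did not pass (−1.38, adjusted p = 0.0968). ZT14 and ZT18 differed by 0.14 ± 0.39 (ZT18 minus ZT14, adjusted p = 0.959). ZT10 lay above both without overlap, but ZT14 minus ZT10 (−0.95 ± 0.36, adjusted p = 0.216) and ZT18 minus ZT10 (−0.81 ± 0.39, adjusted p = 0.408) did not pass.

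The livers of ZT6 were spread in the same direction in all 3 genes. ZT6a was the highest of its time for Per1 (6.69 against 5.81 and 5.32), Per2 (7.60 against 6.39 and 6.28) and Per3 (9.83 against 7.89 and 7.43). Other clock genes of that liver are given here after their values were seen. Ciart, a repressor whose fitted peak is at ZT12.3, measured 7.06, against 5.83 in ZT6b and 4.72 in ZT6c. Arntl was lowest in ZT6a, at 7.02, against 9.01 in ZT6b and 8.01 in ZT6c. Usp2, which encodes a deubiquitinase that acts on PER1, measured 8.14 in ZT6a, against 4.78 in ZT6b and 3.87 in ZT6c. ZT6a is also the liver of that time with low Tff3, so an array that stands apart and its neighbours with high Tff3 cannot be told apart at ZT6. Among the livers of ZT14, the 2 with high Tff3 lay above the other 2 for Per1 (means 8.07 and 7.14) and Per2 (10.82 and 10.30), and for Per3 the means were equal at 9.41. At ZT22 the liver with high Tff3, ZT22a, lay above all others for Per1 (6.53, against a mean of 5.39) and Per3 (7.31 against 6.64). For Per2 it did not (8.21 against 8.30).

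Each member was also tested over the 6 steps of 4 h. From ZT2 to ZT6 Per3 rose by 2.90 ± 0.39 (SE), or 7.48-fold, with an adjusted p of 0.000512, where 0.176% of features were called higher. With ZT6a alone standing for ZT6, the difference of Per3 was 4.35. In the same step Per1 differed by 1.62 ± 0.40 (adjusted p = 0.0846, with a difference of 2.37 for ZT6a alone) and Per2 by 0.69 ± 0.34 (adjusted p = 0.494). From ZT6 to ZT10 Per2 rose by 2.12 ± 0.34 (4.34-fold, adjusted p = 0.00166) and Per3 by 1.98 ± 0.39 (3.94-fold, adjusted p = 0.0129), with 0.279% of features called higher. Per1 differed by 1.59 ± 0.40 in that step (adjusted p = 0.0595). The call for Per3 was lost without ZT6b (0.107) or ZT6c (0.113). Without all Tff3-high arrays the difference was 1.28 for Per2 (adjusted p = 0.325) and 0.53 for Per3 (0.710).

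From ZT10 to ZT14, across lights off, Per2 alone was called. It rose by 1.69 ± 0.31 (3.22-fold, adjusted p = 0.00491), where 0.964% of features were called higher, and by 1.43 without the Tff3-high arrays (adjusted p = 0.0789). From ZT14 to ZT18 none of the 3 was called, where 0.545% of all features were called. From ZT18 to ZT22 Per3 fell by 2.74 on the log2 scale (SE 0.39, 6.67-fold, adjusted p = 0.00114). In that step 8 of 22206 features, or 0.036%, were called lower, and Per3 ranked 6 among all features by size of the difference. Its fall was 2.90 on the log2 scale without the Tff3-high arrays (difference −2.90, adjusted p = 8.28e-05). Per1 and Per2 differed by −1.19 ± 0.40 (adjusted p = 0.606) and −0.99 ± 0.34 (0.651). From ZT22 to ZT2, across lights on, Per2 fell by 2.22 on the log2 scale (difference ZT2 minus ZT22 −2.22 ± 0.31, 4.64-fold, adjusted p = 0.000789), where 0.108% of features were called lower. Without the Tff3-high arrays that difference was −2.24 (adjusted p = 0.00191). Per1 (−1.35 ± 0.37) and Per3 (−1.33 ± 0.36) had an adjusted p of 0.157 each.

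**Figure D2:**
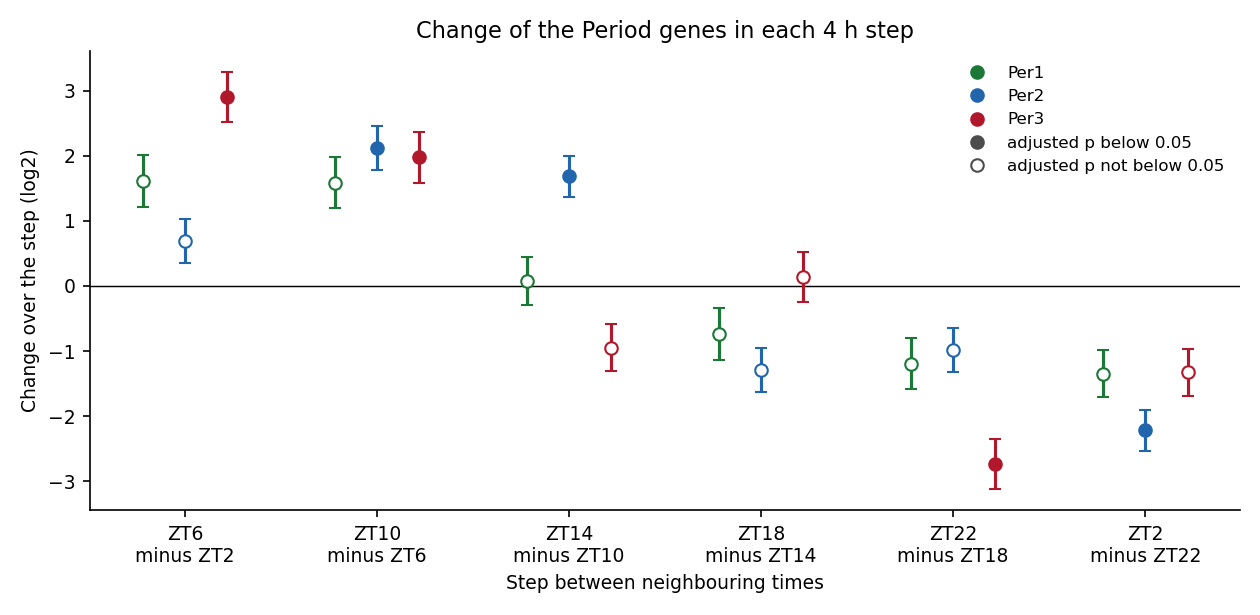
Change of each Period gene (log2, points with SE) over the 6 steps of 4 h, each the later time minus the earlier one. Filled points had an adjusted p below 0.05: Per3 from ZT2 to ZT6 (2.90), Per2 and Per3 from ZT6 to ZT10, Per2 from ZT10 to ZT14 (1.69), Per3 from ZT18 to ZT22 (−2.74) and Per2 from ZT22 to ZT2 (−2.22).

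Counted over the day, 3 of the 6 steps were called for Per2, 3 for Per3 and 0 for Per1. At an unadjusted p under 0.05 limma gave 5, 5 and 4 steps. The share of all features under that limit is not given here, so unadjusted results in this paragraph lack a background. For Per1 the count of called steps was 0 as well when each pair of times was fitted alone, and 1 or 2 when ZT6a, ZT10b, ZT14a or ZT22a was left out. Over all 15 pairs of times 6 were called for Per1, 10 for Per2 and 9 for Per3, where between 0.0811% (ZT22 against ZT18) and 4.27% (ZT14 against ZT2) of features were called per pair. Against ZT2, all 3 members were higher at ZT10, ZT14 and ZT18, where 2.22%, 4.27% and 1.11% of features were called in either direction. At ZT6 against ZT2 (0.392% in either direction) Per3 was called. ZT22 was lower than ZT10 for Per1 and Per3 (3.3% called) and lower than ZT14 for all 3 (1.99%). Against ZT6, Per1 and Per2 were higher at ZT14 (2.8%), Per2 was higher at ZT18 (1.13%), and 1.09% of features were called at ZT22. The difference of Per1 at ZT14 minus ZT6, 1.67 (adjusted p = 0.0197), was lost without ZT6b, ZT6c, ZT14b or ZT14d (0.0603 to 0.132), and was 0.45 without all Tff3-high arrays (0.794). That of Per2 at ZT18 minus ZT6, 2.51 (adjusted p = 0.000574), was 1.67 without the Tff3-high arrays (0.140). ZT18 against ZT10 (1.47%) was called for none of the 3, with limma p under 0.05 before adjustment for Per3 alone. The other steps had 0.639% (ZT10 against ZT6), 1.72% (ZT14 against ZT10), 0.545% (ZT18 against ZT14) and 0.131% (ZT2 against ZT22) called in either direction. A step that passes in 1 gene and not in another does not show that the genes differ, so the difference itself was tested next.

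The ratio between members changed over the day. The value of Per2 minus that of Per1 was taken within each array, so that anything shared by an array drops out, and a 24 h cosine of that difference was tested by permutation over arrays (two-sided, 100000 resamples, 3 pairs). Per2 minus Per1 varied with an amplitude of 0.97 (permutation p = 0.0012, adjusted p = 0.0036), Per2 minus Per3 with 1.30 (p = 0.00449, adjusted p = 0.00673) and Per3 minus Per1 with 0.69 (p = 0.0295, adjusted p = 0.0295). Without the Tff3-high arrays the adjusted p was 0.0155 for each pair. The result for Per3 and Per1 was lost without ZT2d, ZT10b, ZT22a or ZT22b (adjusted permutation p up to 0.0719), and when each gene was scaled to the same SD (0.434).

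The difference Per2 minus Per3 moved most. Its ZT14 mean was 1.15 ± 0.35 and its ZT10 mean −1.49 ± 0.65 (SD, n = 4 each), with ZT14 livers at 0.70 to 1.51 and ZT10 livers at −2.25 to −0.94. The 8 livers did not overlap, and the change was 2.64. It was −0.28 ± 0.08 at ZT18 (SD, n = 3), below all livers of ZT14. At ZT22 it averaged 1.47 ± 1.42 (SD, n = 4) and ranged from 0.47 to 3.57, with ZT22b at the top. The exact permutation test of this step from ZT10 to ZT14 gave p = 0.0286, the smallest that 4 against 4 arrays allow, and 0.0858 when adjusted over the 18 steps tested in the 3 pairs. Of those 18 steps 0 passed after adjustment, and their lowest adjusted p was 0.0858. A single step could not pass that adjustment on its own, since 0.0286 was the smallest p that any step allowed. The count therefore does not show that no step changed. These step tests were added after the data were seen.

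**Figure D3:**
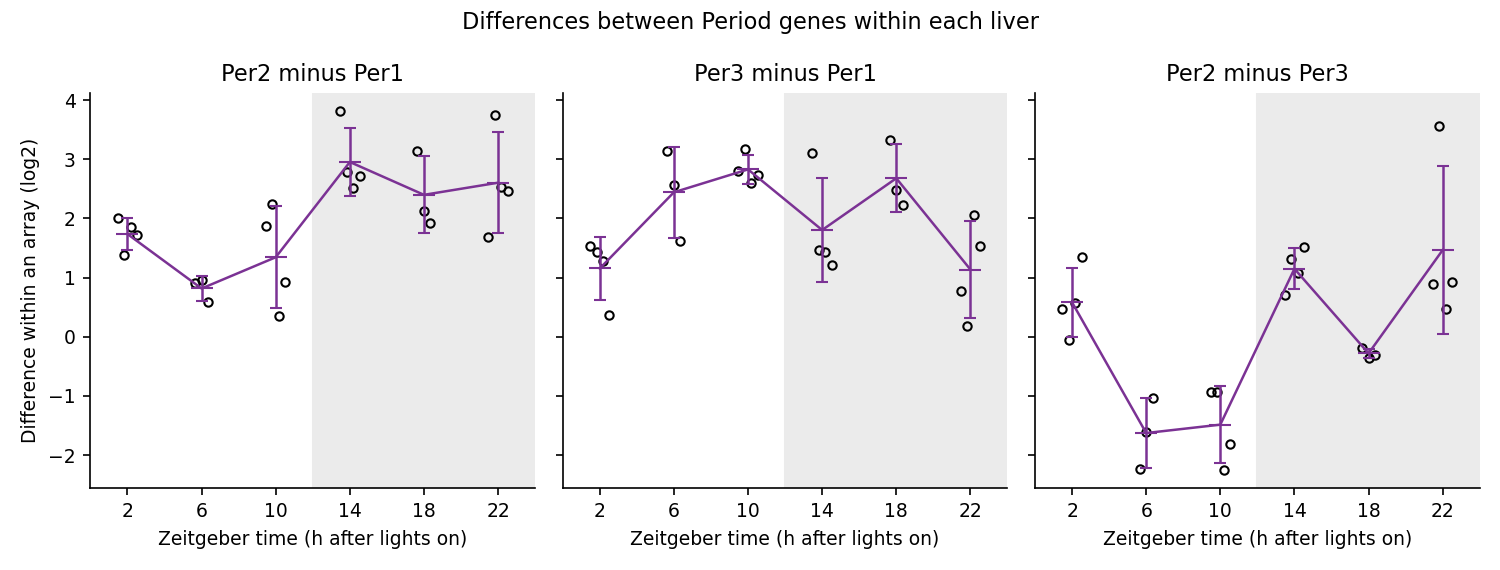
Difference of the log2 values of 2 Period genes within each array against zeitgeber time. Circles are livers, the line joins time means with the SD, and grey is the dark phase; only the change over time can be read, such as Per2 minus Per3 with a mean of 1.15 at ZT14 and −1.49 at ZT10.

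In the fitted cosines Per2 followed the others. Its fitted peak lay 1.69 ± 0.48 h after that of Per1 and 2.34 ± 0.60 h after that of Per3 (SE, n = 22), at ZT15.1 ± 0.28 h. Per1 peaked at ZT13.4 ± 0.42 h and Per3 at ZT12.7 ± 0.42 h, so Per3 minus Per1 came to −0.64 ± 0.49 h. In the omissions of single arrays these differences ranged from 1.47 to 1.89 h, from 1.96 to 2.60 h and from −0.98 to −0.48 h. Amplitudes were larger than that of Per1 by 0.54 ± 0.21 for Per2 and 0.61 ± 0.23 for Per3, and Per2 minus Per3 was −0.08 ± 0.32. Each gene is read by its own probes, and Per1 at ZT2 (3.97 to 4.76) lay not far above the lower quartile of the arrays. The amplitude of Per1, and with it both differences from it, is therefore uncertain. Without the Tff3-high arrays the amplitude of Per2 exceeded that of Per1 by 0.33 ± 0.26.

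A cosine described the 3 courses unequally well. For Per3 the ZT14 mean lay 0.95 below the fitted curve (9.41 against 10.36) and the ZT18 mean 0.85 above it (9.55 against 8.70). The fitted peak of Per3 therefore falls after its highest measured time. A 12 h component beside the 24 h term was called for none of the 3 by limma, where 0.018% of features were called. Its amplitude was 0.91 ± 0.16 for Per3 (unadjusted p = 2.21e-05, adjusted p = 0.0614), 0.38 ± 0.15 for Per1 (0.0594 and 0.672) and 0.33 ± 0.15 for Per2 (0.121 and 0.742). At an unadjusted p under 0.05 Per3 would be the 1 member called, but the share of all features under that limit is not given here. The component of Per3 was called without the Tff3-high arrays (adjusted p = 0.00195), without ZT6c (0.00881), without ZT22b (0.0116) and with array weights (0.0183). A shape other than a cosine gives such a component as well, so it does not show a separate 12 h rhythm.

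Among the listed genes of Per control, which include targets that only mark an inducing signal, those of the clock loop itself were rhythmic. Of 74 measured genes in 10 lists 30 were called for a 24 h rhythm, with a median fitted span of 1.42-fold, beside 7.62% and a median of 1.24-fold over all features. The lowest arrays of Ciart (3.74), Tef (3.47), Usp2 (3.50) and Npas2 (3.92) lay near or below the lower quartile of the arrays, so their spans are uncertain at the low end. All 3 activators were called and peaked in the late dark phase, Arntl at ZT22.9 (33.7-fold from trough to peak), Clock at ZT23.5 (3.49-fold) and Npas2 at ZT23.9 (13.4-fold).  All 7 repressors were called. The REV-ERB genes Nr1d1 (ZT6.83, 118-fold) and Nr1d2 (ZT8.99, 11.9-fold), which repress Arntl, peaked in the light phase, and Ciart peaked at ZT12.3 (33.0-fold). Of the cryptochromes, which enter the nucleus with PER proteins, Cry2 peaked at ZT14.5 (2.35-fold), close to Per2, and Cry1 at ZT19.3 (7.72-fold).

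All 4 D-box factors were called. The activators among them peaked at ZT10.9 (Dbp, 348-fold), ZT11.5 (Tef, 4.55-fold) and ZT14.4 (Hlf, 2.48-fold), and Nfil3, which represses through the same element, at ZT22.8 (4.84-fold). The highest mean of Per3 fell at ZT10, as did that of Dbp, and the relation between the 2 was not tested. The lowest means of Per3, at ZT2 and ZT22, fell at the times of the lowest Dbp means (7.41 and 7.87). Those were the lowest times of Per1 as well (4.325 and 5.67). Between them the courses differed. Dbp fell from 16.0 at ZT10 to 13.3 at ZT14 and 11.1 at ZT18, whereas Per3 measured 9.41 and 9.55 at ZT14 and ZT18. At ZT6 the Dbp mean (13.7) lay above that of ZT14, and the Per3 mean (8.38) lay below it.

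**Figure D4:**
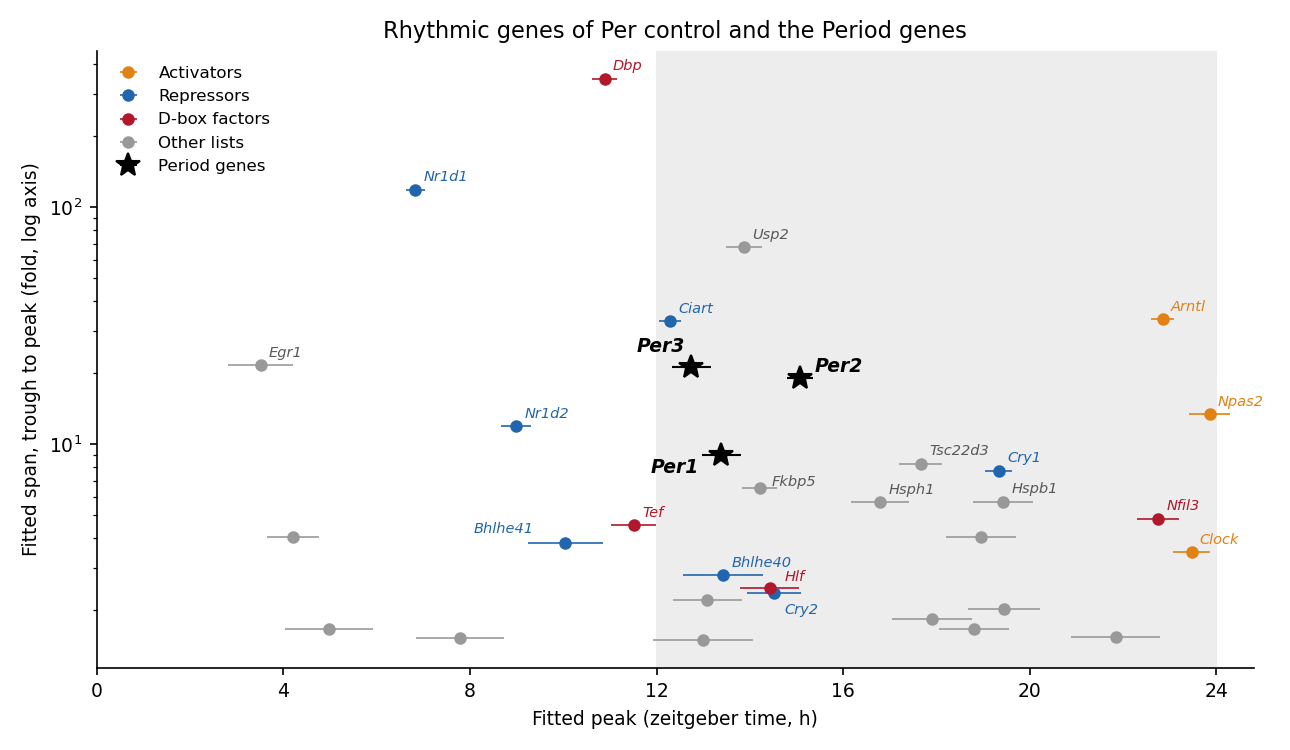
Fitted peak time (h, points with SE) and fitted span from trough to peak (fold, log axis) of the Period genes (stars) and of the 30 genes of the 10 lists that were called for a 24 h rhythm. Grey marks the dark phase; the Period genes lie between Dbp (ZT10.9) and Cry1 (ZT19.3), and the activators at ZT22.9 to ZT23.9.

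The next 3 lists had few calls, as had all features (7.62%). Of 16 measured kinases, phosphatases and factors of PER turnover 2 were called, Usp2 (ZT13.9, 67.6-fold) and Csnk2a2, a casein kinase 2 subunit (ZT7.79, 1.51-fold, adjusted p = 0.0404). The casein kinase 1 genes Csnk1d (1.32-fold, adjusted p = 0.341) and Csnk1e (1.11-fold, 0.863) were not, nor were the ubiquitin ligase subunits Btrc (1.23-fold, 0.711) and Fbxw11 (1.09-fold, 0.823). Of 9 measured proteins of the nuclear PER complex 1 was called, the helicase gene Dhx9 (1.49-fold, adjusted p = 0.0415), and Nono (1.19-fold, 0.720) and Sfpq (adjusted p = 0.193) were not. Of 6 genes of PER RNA and translation control 1 was called, Atxn2 (1.66-fold, adjusted p = 0.0468).

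Signals that can induce Per1 or Per2 had rhythmic marks in part. In the glucocorticoid list 4 of 7 genes were called, and their fitted peaks were spread over the day. The peak of Klf9 (4.07-fold) lay at ZT4.21 and that of Fkbp5 (6.50-fold) at ZT14.2. Peaks of Tsc22d3 (8.26-fold) and Tat (1.82-fold) fell at ZT17.7 and ZT17.9. Sgk1 (1.84-fold, adjusted p = 0.562), Dusp1 (1.37-fold, 0.923) and the receptor gene Nr3c1 (1.09-fold, 0.932) were not called. Of 6 heat shock genes 4 were called, Hspa1a at ZT13.1 (2.19-fold), Hsph1 at ZT16.8 (5.67-fold), Hsp90aa1 at ZT19.0 (4.05-fold) and Hspb1 at ZT19.4 (5.72-fold). Of 10 genes of cAMP and CREB signalling 2 were called, the kinase subunits Prkaca (1.54-fold, adjusted p = 0.0236) and Prkar2a (1.65-fold, 0.00931), while Creb1 (1.36-fold, 0.329) and Sik1 (1.45-fold, 0.801) were not. Of 6 serum response genes 2 were called, Egr1 (ZT3.51, 21.5-fold) and Mrtfb (ZT19.5, 2.02-fold), and Srf was not (1.08-fold, 0.938).

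The genes whose values followed each member most closely over the 22 arrays were separate for Per2, while Per1 and Per3 shared Wee1. For Per1 they were Nrg4 (Pearson r = 0.915), Wee1 (0.906), Usp2 (0.892), Per3 (0.885) and Lrp4 (0.883). For Per2 they were Marveld1 (0.944), Baz1b (0.902), Anpep (0.9005), Tspan4 (0.893) and Fmo2 (0.891). For Per3 they were Wee1 (0.942), Klf13 (0.896), Tef (0.890), Mtss1 (0.888) and Ciart (0.888). Among 18478 other named genes, Per1 ranked 37 and Per3 ranked 189 by likeness to Per2, with r of 0.819 and 0.682. The genes most opposed to Per1 were Insig2 (−0.878), Smagp (−0.871) and Ethe1 (−0.870). To Per2 they were Crot, a peroxisomal acyltransferase (−0.947), Igfbp1 (−0.915) and Fga (−0.888). To Per3 they were Insig2 (−0.908), Dtx4 (−0.898) and Asap2 (−0.889). These coefficients are over 22 arrays that share 6 times of day, so any gene with a like phase scores high. By Spearman's rank coefficient 3, 2 and 1 of the 5 genes stayed among the first 5 of Per1, Per2 and Per3, and over the 6 time means 0, 0 and 0.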

How the data were processed

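Per the labels' protocols, TRIzol was used for total RNA, of which 100 ng went onto each Clariom S array through the WT Plus kit. The authors deposited 1 log2 expression value per feature and array, with 2 decimals; the log base was read from the range of the values (1.68 to 19.87) and is not stated. The sources used here do not give summarization, normalization, software or build. Arrays have no read depth, so their number limits the precision, and p-values reflect only how these samples vary, which may be partly technical.

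Gene names came from the platform annotation (19572 of 22206 features with a symbol). limma 3.58.1 in R 4.3.3 (with the data.table package, version 1.17.8) fitted, through lmFit and eBayes, the following to every feature: a 24 h cosine and sine, a 12 h pair added to it, and all 15 pairs of 6 time means, with Benjamini-Hochberg adjustment over all features and a threshold of 0.05. Fits were tested on simulated data. Spans are 2 raised to the doubled amplitude. Promoter motifs were searched on both strands. The members, lists and tests were chosen with earlier results of these data known. Named genes were the members, Adipoq and Tff3, the genes of each list with the lowest adjusted p (3 at most), further list genes where Per control needs their value, and the 5 most and 3 least correlated genes of each member. The replicate letters gave no sign of pairing the arrays over all features. Deviations from time means correlated with a median of 0.00278 over 51 pairs with the same letter (−0.236 to 0.226). Over 150 pairs with different letters the median was 0.00166 (−0.242 to 0.255). A pairing that touches few genes or arrays would not show in these medians.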

Additional observations from a re-analysis of the deposited data

Results flagged for a closer look

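In groups of 4 livers, 2 values of the Period genes stood apart from their time by Dixon's criterion, of 12 groups tested. Chance alone flags about 1 in 20 groups. Per1 measured 6.41 in ZT14a, against 7.87 to 8.17 in the other 3 livers of ZT14. Per3 measured 5.73 in ZT22b, against 7.06 to 7.31 in the other 3 livers of ZT22. Per2 was highest of its time in the same liver, at 9.30.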

How the results depend on the processing

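No called result changed direction in any setting tried, and the 24 h call of each member held in all of them. The 12 h component of Per3 passed with array weights (0.0183) and without the 5 Tff3-high arrays (0.00195), and ranged from 0.00881 to 0.129 over omissions of single arrays. Steps called for Per1 numbered 1 with quantile normalization, with features above the median level and without the Tff3-high arrays, and 0 to 2 over single omissions (1 without ZT6a, ZT10b or ZT22a, 2 without ZT14a). With each pair of times fitted alone, the step of Per3 from ZT6 to ZT10 (0.115), Per1 at ZT14 minus ZT6 (0.125) and both calls at ZT22 minus ZT6 did not pass, and Per3 at ZT14 minus ZT10 did (0.0323). Without the Tff3-high arrays, which leaves 1 liver at ZT6, Per2 had 1 step and 6 pairs of times called. The fitted amplitude of Per2 minus that of Per3 was then −0.51 ± 0.38, against −0.08 ± 0.32 (SE) with all arrays. The adjusted p of Per3 minus Per1 was 0.434 at unit SD and 0.0122 to 0.0719 over single omissions. With the letters as a replicate block the 24 h adjusted p was 2.95e-06 for Per1, 4.02e-09 for Per2 and 1.49e-06 for Per3, and the block changed no call given here. At a threshold of 0.01, 830 features were called for a 24 h rhythm against 1691. Where a setting moved a result the cause was not tested. ZT6 and ZT18 rest on 3 livers each, and the low end of Per1 lies near the lower quartile of the arrays.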
